A study of Mus musculus with 6 samples.

Results

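The genes described here are the PRDM family, named for the PR domain that most of its proteins carry at the amino end and that is related to the SET domain of histone methyltransferases. They were chosen by symbol: 9 of the 17523 rows of the deposited count table are Mecom (also called Evi1 or Prdm3), Prdm16, Prdm1, Prdm2, Prdm4, Prdm9, Prdm10, Prdm11 and Prdm15. RNA was sequenced from marrow cells of C57BL/6 mice that the series calls hematopoietic stem cells (HSCs), in 3 wild-type (WT) libraries and 3 libraries of NHD13 mice, which carry the leukaemia fusion NUP98-HOXD13, made from a nuclear pore gene and a homeobox gene, and model myelodysplastic syndrome. The question was what the fusion does to RNA levels in these cells. The labels give no ages, no surface markers of the sort and no promoter of the fusion. In the published NHD13 line the fusion is driven by regulatory elements of Vav1, which act in blood cells. The labels do not say whether replicates came from separate animals, so the p-values measure only the spread between these libraries, which may be technical.

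Most PRDM proteins carry zinc fingers after the PR domain, bind DNA through them, and recruit corepressors or histone methyltransferases. MECOM and PRDM16 are the closest pair of the family. Both are needed for long-term HSCs in mice, both have been described as methyltransferases of histone H3 lysine 9, and both are activated by rearrangement or viral insertion in myeloid leukaemia. MECOM is made in a long form with the PR domain (MDS1-EVI1) and in a short form without it (EVI1), which is the form overproduced in human leukaemia with rearranged chromosome bands at that locus.

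Total counts were between 12541538 and 14388772 per library, and 1 count was worth between 0.0691 and 0.0791 CPM (counts divided by library size, with the size scaled by TMM, the trimmed mean of M-values). By a chi-square of their counts, NHD13 replicate 1 stood apart from the rest of its group (25.6 and 25.3 per degree of freedom, against 3.23 between NHD13 replicates 2 and 3). It was nearer to WT replicate 1 (18.5), itself the farthest of its group (12 and 6.95, against 4.36 between WT replicates 2 and 3). No pair of libraries came as close as sampling noise. Calls of members and counts over partner and target lists are therefore also given without NHD13 replicate 1 where they change. The share of counts from 4 Y-linked genes was 0.0194%, 0.0109% and 0.0113% in WT and 0.0248%, 0.028% and 0.0177% in NHD13. The groups overlapped through WT replicate 1, and 3 of the 4 genes passed as higher in NHD13, with a median log2 change of 0.79. Defining HSC markers were scarce: Procr lay between 0.0691 and 0.553 CPM and Fgd5 between 0 and 0.209 CPM. Mpo, a gene of granulocyte precursors, lay between 5060 and 9700 CPM, and 8 neutrophil genes summed to 43400 to 57100 CPM in WT and 33600 to 36300 CPM in NHD13, so the libraries held much RNA of maturing myeloid cells.

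Of the 9 PRDM genes, 8 had enough counts to be tested, and 3 of them rose in NHD13: Mecom, Prdm16 and Prdm10. None fell at an adjusted p under 0.05 by edgeR's quasi-likelihood test, by DESeq2 or by limma-voom, and 1 (Prdm9) was lower at an unadjusted p under 0.05. Over all 12013 genes tested, 30.3% passed the threshold, 15.0% as higher and 15.3% as lower. As a count of calls in either direction, 3 of 8 is near the background share. All 3 were higher, a larger share than the 15.0% over all genes, but it rests on 8 genes and was not tested. The median log2 change of the 8 genes was 0.09, against 0.0 for all genes tested. All 8 reached the low-count limit of 0.718 CPM in all 3 WT and all 3 NHD13 libraries, so none entered the test through one group alone. Mecom and Prdm16 differ from the other members by the size of their change: 0.4% of all tested genes had a larger log2 increase than Mecom, and 0.724% a larger one than Prdm16.

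**Figure D1:**
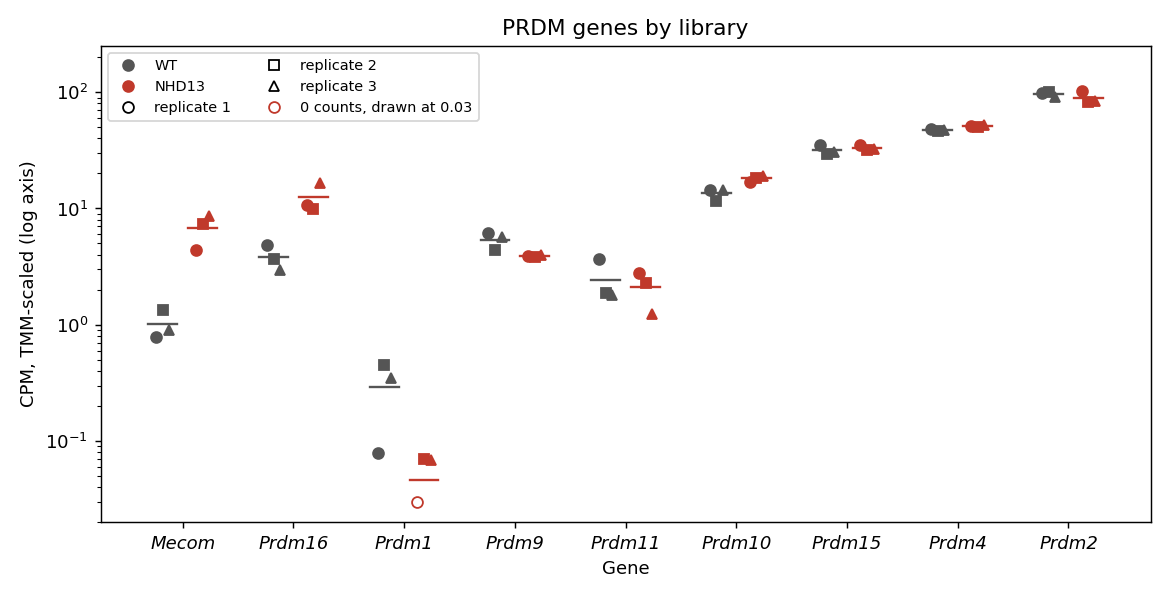
TMM-scaled CPM (log axis) of the 9 PRDM genes in each library, WT in grey and NHD13 in red, with a symbol for each replicate and a line at the group mean. Mecom rises from between 0.791 and 1.34 CPM to between 4.43 and 8.57 CPM, while Prdm2, Prdm4 and Prdm15 stay close to their WT levels, and an open symbol marks the NHD13 library in which Prdm1 had 0 counts.

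Mecom (ENSMUSG00000027684, mm10 chromosome 3, 29951296 to 30548008, minus strand) encodes the zinc-finger factor that maintains HSC self-renewal in mice. It had 10, 18 and 13 counts in WT replicates 1 to 3 and 59, 105 and 124 counts in NHD13 replicates 1 to 3, or 0.791, 1.34 and 0.906 CPM against 4.43, 7.3 and 8.57 CPM. The groups did not overlap, and NHD13 replicate 1 was the lowest of its group. The mean went from 1.01 CPM ± 0.29 to 6.77 CPM ± 2.12 (SD, n = 3 each), a 6.64-fold rise (log2 2.73, SE 0.33, 95% interval 1.99 to 3.47, edgeR quasi-likelihood adjusted p = 0.00105). It stayed past the threshold in all 16 alternatives, with log2 changes between 2.51 and 3.15 and adjusted p between 7.12e-11 and 0.0123. The log2 change was 2.96 without NHD13 replicate 1 and 3.15 when the Y-linked share of each library entered as a covariate. In RNA from a sorted mixture, more cells that express a gene and more RNA per cell cannot be told apart, and this holds for every change given here.

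The annotation (GENCODE vM21) lists 17 transcripts for Mecom, and counts per gene do not separate the form with the PR domain from the form without it. The antisense gene Mecomos shares 81 exon bases with Mecom, or 0.652% of its exon length, and as no source states whether counting used strand, reads there may belong to either. RefSeq gives promoter windows for 8 of the 9 genes, in build GRCm38, and those of Mecom and Prdm16 are shown because these genes had the largest increases of the family. Of the Mecom start at 30509759, the 187 bases from 250 to 64 before it lie outside any exon (chr3:30509823-30510009), and the 30 bases around the only match to the HOX-PBX pattern TGATNNAT lie from 42 to 13 before it (chr3:30509772-30509801), within an annotated exon. For Prdm16 the 250 bases before the start are shown (chr4:154636874-154637123). All are on the minus strand, and capitals mark a match to one of 5 patterns searched on both strands.
Mecom upstream: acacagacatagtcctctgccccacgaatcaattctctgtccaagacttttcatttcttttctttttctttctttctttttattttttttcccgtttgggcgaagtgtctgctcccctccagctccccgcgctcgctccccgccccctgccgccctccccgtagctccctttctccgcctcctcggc
Mecom HOX-PBX match: ccaaatcaaagTGATAAATcgctccaaact
Prdm16 upstream: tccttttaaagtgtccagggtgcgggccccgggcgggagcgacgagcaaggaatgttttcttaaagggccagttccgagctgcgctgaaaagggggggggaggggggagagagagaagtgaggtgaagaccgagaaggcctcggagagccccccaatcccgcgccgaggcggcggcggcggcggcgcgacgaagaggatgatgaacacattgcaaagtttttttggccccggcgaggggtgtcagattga

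Of 32817 RefSeq windows of 250 bases before a start, 7.69% held the HOX-PBX pattern given above. The MEIS pattern TGACAG was present in 15.9%. The GATA pattern AGATAA was present in 9.99%. The RUNX pattern TGTGGT was present in 14.0%, and the ETS pattern, spelt CGGAAG, was present in 13.6%. In the stretches printed no match overlaps another. Both Mecom starts lie within the annotated gene, which on the minus strand begins at 30548008. The window of the second Mecom start, at 30013204 and all of it in an exon, held a MEIS and an ETS match and no HOX-PBX match. The Prdm16 window held none of the 5 patterns. These matches describe letters in short windows and do not show that a factor binds there. The Prdm16 window was richer in G and C (62.4%, with 22 CpG) than the 250 bases before the upstream Mecom start (50.8%, with 14 CpG).

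Prdm16 (ENSMUSG00000039410, chromosome 4, 154316125 to 154636873, minus strand) encodes a factor that preserves HSCs and limits oxidative stress in mice, and that also sets brown fat identity. Its counts were 61, 49 and 42 in WT replicates 1 to 3 and 144, 142 and 240 in NHD13 replicates 1 to 3, or 4.82, 3.65 and 2.93 CPM against 10.8, 9.88 and 16.6 CPM. The groups did not overlap, and NHD13 replicate 3 was the highest. The mean went from 3.8 CPM ± 0.957 to 12.4 CPM ± 3.64 (n = 3 each), a 3.28-fold rise (log2 1.72, SE 0.26, 95% interval 1.13 to 2.3, edgeR quasi-likelihood adjusted p = 0.0027). It too stayed past the threshold in all 16 alternatives, with log2 changes between 1.44 and 2.01 and adjusted p between 3.33e-08 and 0.0397, the highest with the Y-linked covariate. Prdm16 shares 109 exon bases with B230104I21Rik on the other strand, 1.169% of its exon length.

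Per kilobase of exon, Prdm16 was above Mecom in all 6 libraries. The ratio of their reads per kilobase was 8.13, 3.63 and 4.31 in WT replicates 1 to 3 and 3.25, 1.8 and 2.58 in NHD13 replicates 1 to 3. Every NHD13 ratio lay below every WT ratio, and the ratio of WT replicate 1 rests on 10 Mecom counts. The mean log2 ratio of Prdm16 to Mecom was lower in NHD13 by a difference of -1.02 (exact permutation p = 0.1, two-sided, which is the smallest that 3 libraries against 3 allow). Together, Mecom and Prdm16 made up 1.97% to 2.64% of the summed CPM of the 9 genes in WT and 6.66% to 11.6% in NHD13, while that sum itself was 195 to 212 CPM in WT and 207 to 229 CPM in NHD13.

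**Figure D2:**
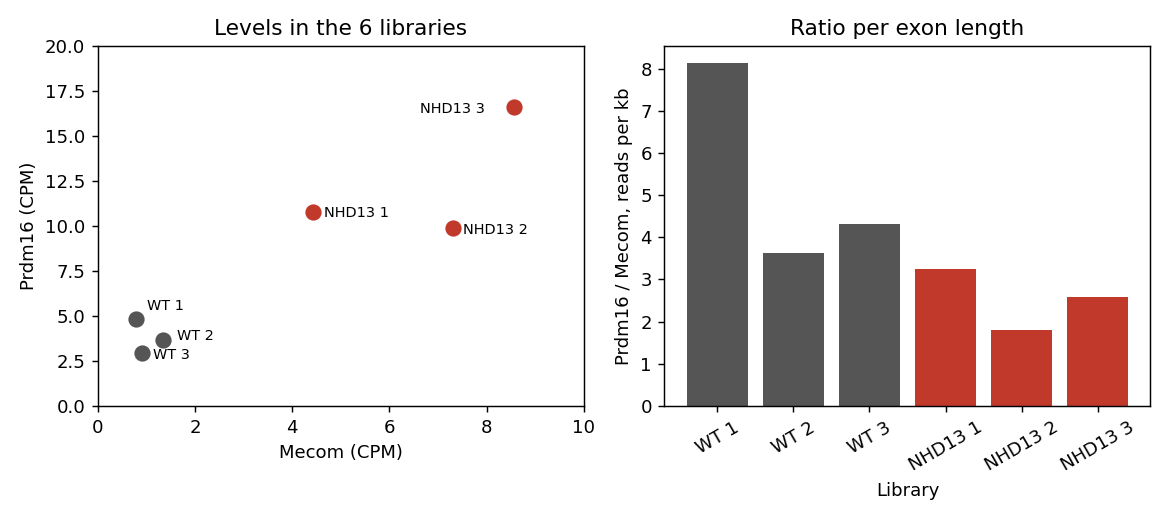
Left, Prdm16 against Mecom in TMM-scaled CPM, 1 point per library, WT in grey and NHD13 in red. Right, the ratio of Prdm16 to Mecom reads per kilobase of exon in each library (bars from 0), which runs from 3.63 to 8.13 in WT and from 1.8 to 3.25 in NHD13.

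Several cell types besides HSCs express Mecom or Prdm16, and the marker lists of those types are given here as summed CPM. The 8 endothelial markers summed to 76.5 to 90 CPM in WT and 28.9 to 49 CPM in NHD13. Most of that sum was Pecam1. Of the 4 tested markers, 3 fell (Pecam1, Tek and Tie1). Tek reached the low-count limit in 3 WT libraries and 1 NHD13 library, so it was tested because of its WT level. The defining endothelial gene Cdh5 was near the counting limit in both groups, at 0, 5 and 4 counts in WT and 0 in each NHD13 library. The tested marker that did not fall, Plvap, was at 3.14 to 3.95 CPM in WT and 4.2 to 5.84 CPM in NHD13, without overlap (log2 0.57, edgeR adjusted p = 0.0567). The 7 megakaryocyte markers summed to 63.6 to 75.1 CPM in WT and 54.9 to 70.4 CPM in NHD13, with 1 higher and 1 lower of 6 tested and a median log2 change of 0.29. The platelet chemokine gene Pf4 rose without overlap (log2 1.13, adjusted p = 0.0132, with the call lost when any library but WT replicate 1 or NHD13 replicate 3 was left out), Itga2b, the most abundant of the list, fell (log2 -1.05, adjusted p = 0.000843), and Gp6 had at most 1 count in any library. The 10 stem cell markers summed to 66.9 to 69.5 CPM in WT and 54.7 to 82.9 CPM in NHD13, groups that overlap, with 1 higher and 2 lower of 6 tested. Mllt3, the most abundant of them, rose with overlap (log2 0.74, edgeR adjusted p = 0.0472) and passed in 6 of the 16 alternatives. Hlf (log2 -1.96, adjusted p = 0.00295) and Meis1 (log2 -1.49, adjusted p = 0.000843) fell without overlap, and each passed in 15 of 16. Erythroid markers moved in the same direction as Mecom: the WT sums of 5 genes ran from 223 to 266 CPM, and those of NHD13 replicates 1, 2 and 3 were 359, 644 and 608 CPM, with 4 of 5 genes higher. Over all genes tested, 15.0% passed as higher and 15.3% as lower. The part of these cell types in the rise of Mecom and Prdm16 was not tested.

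Prdm10, a widely expressed zinc-finger gene that is fused in a group of human soft tissue tumours, rose by less. It was at 14.5, 11.6 and 14.4 CPM in WT and 17, 18.4 and 19.1 CPM in NHD13, groups that do not overlap. The mean went from 13.5 CPM ± 1.66 to 18.2 CPM ± 1.05 (n = 3 each), a 1.34-fold change (log2 0.43, SE 0.12, 95% interval 0.15 to 0.7, edgeR adjusted p = 0.0292). Leaving out a library ended the call in 4 cases. The adjusted p was 0.091 or 0.0675 after dropping the second or the third WT library, and 0.0969 or 0.11 after dropping those of NHD13, and the call was also lost on adjusting for the Y-linked share (0.285), so that 2 members rose under those settings. Its gene model shares 129 exon bases with 4930517E14Rik on the other strand.

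The most abundant members did not pass the threshold, and their intervals bound the change. Prdm2 (RIZ), which binds the retinoblastoma protein and has a histone methyltransferase form, was at 99.1, 100 and 90.8 CPM in WT and 103, 82.8 and 83.8 CPM in NHD13. The groups overlapped through NHD13 replicate 1, and the log2 change was -0.1 with a 95% interval of -0.33 to 0.12 (edgeR adjusted p = 0.437). Without NHD13 replicate 1 it was -0.21 and passed (adjusted p = 0.0199), as it did without replicate 1 of both groups (log2 -0.2, adjusted p = 0.0228). Prdm4, which binds the arginine methyltransferase PRMT5 in neural progenitors of mice, was at 47.9, 46.7 and 47.3 CPM in WT and 51.6, 49.9 and 51.8 CPM in NHD13. These values do not overlap, but the change was small (log2 0.11, interval -0.04 to 0.26, adjusted p = 0.219). Prdm15, a regulator of pluripotency signalling in mouse embryonic stem cells, was at 35.3, 29.2 and 30.7 CPM in WT and 34.8, 32.1 and 32.2 CPM in NHD13 (log2 0.06, interval -0.16 to 0.27, adjusted p = 0.667).

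Among the 8 tested members the libraries of the groups did not overlap for 5 (4 higher in NHD13 and 1 lower), where 46.1% of all tested genes had groups that did not overlap, 23.5% with NHD13 higher and 22.6% with NHD13 lower. The gene that was lower was Prdm9, the methyltransferase that places meiotic recombination hotspots in germ cells. It was at 6.09, 4.39 and 5.64 CPM in WT and 3.9, 3.83 and 4.01 CPM in NHD13, and the 3 NHD13 values lay close together. The log2 change was -0.46 (SE 0.18, interval -0.87 to -0.04), which did not pass after adjustment (edgeR adjusted p = 0.0873) and did not pass in any of the 16 alternatives (adjusted p between 0.0662 and 0.271). Prdm9 transcripts are thus counted in these marrow cells at 52 to 81 reads per library. Prdm11, which restrains Myc-driven B-cell lymphoma in mice, was at 3.64, 1.86 and 1.81 CPM in WT and 2.78, 2.3 and 1.24 CPM in NHD13. Its interval was the widest of the tested members, -1.06 to 0.65 (log2 -0.21, adjusted p = 0.705), and its sign turned without WT replicate 1 (0.17) or NHD13 replicate 3 (0.06). With the Y-linked covariate its log2 change was -1.23, still short of the threshold (adjusted p = 0.126).

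**Figure D3:**
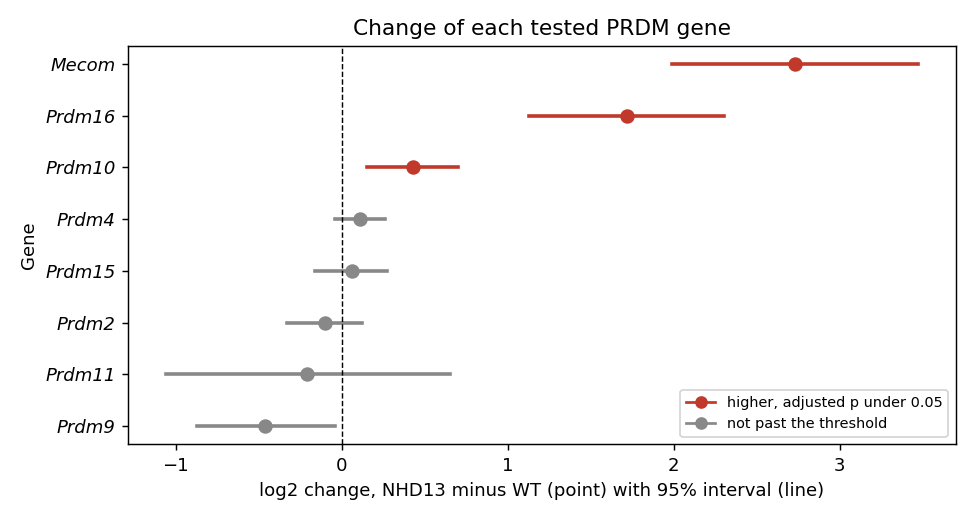
Log2 change (NHD13 minus WT, point) with its 95% interval (line) for the 8 tested PRDM members. Mecom at 2.73 and Prdm16 at 1.72 lie to the right of Prdm10 at 0.43, and the intervals of Prdm2, Prdm4, Prdm11 and Prdm15 include 0.

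Prdm1 (BLIMP1), which drives plasma cell differentiation and also acts in T, NK and myeloid cells, was too low to test. It had 1, 6 and 5 counts in WT replicates 1 to 3 and 0, 1 and 1 counts in NHD13 replicates 1 to 3, at most 0.447 CPM, and WT replicate 1 was at the level of the NHD13 libraries. The ratio of WT to NHD13 was 6.26, with an exact 95% interval of 1.39 to 57.6 that covers counting error only. Without the low-count filter its edgeR adjusted p was 0.0915. Beside it, the 8 B and plasma cell markers summed to 22.4 to 29.9 CPM in WT and 12.4 to 16.9 CPM in NHD13, and the plasma cell receptor gene Tnfrsf17 had at most 1 count in any library. Most of that sum was Cd79b. Of 4 tested markers, 3 fell and 0 rose: Cd79b (log2 -0.58, edgeR adjusted p = 0.0405), Sdc1 (log2 -2.42, adjusted p = 0.00667) and Igj (log2 -3.05, adjusted p = 0.00983), all without overlap. Igj reached the low-count limit in 0 and Sdc1 in 2 NHD13 libraries, so both were tested because of their WT level. The 8 monocyte and macrophage markers summed to 1080 to 1220 CPM in WT and 612 to 884 CPM in NHD13. Most of that sum was Ly6c2 (log2 -0.43, edgeR adjusted p = 0.0438). Of 6 tested monocyte and macrophage markers, 5 fell and 0 rose, with a median log2 change of -1.34. The 8 T and NK markers summed to 181 to 246 CPM in WT and 127 to 234 CPM in NHD13. Most of the T and NK sum was Nkg7, which did not pass. Of 5 tested T and NK markers, 2 fell and 0 rose, Ncr1 (log2 -4.88, edgeR adjusted p = 0.00355) and Klrd1 (log2 -1.73, adjusted p = 0.00953). Both reached the low-count limit in 0 NHD13 libraries, so they were tested because of their WT level. Over all genes tested, 15.3% passed as lower. The part of these cells in the Prdm1 counts was not tested.

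Of the family genes outside the member list, 3 were looked at and none had enough counts to test. Prdm8, a neural and retinal gene, had 4 counts in each group. Prdm14, a gene of germ cell precursors, had 1 count in NHD13 and none in WT, and Prdm12, a gene of sensory neurons, was never counted, where 3 counts, the limit of a count of 0, are worth at most 0.237 CPM.

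Levels per kilobase of exon, which allow genes to be set side by side, placed Prdm2 first in both groups, at 13 CPM per kilobase ± 0.691 in WT and 12.1 ± 1.56 in NHD13. Prdm4 followed at 9.63 and 10.4, Prdm15 at 2.8 and 2.91 and Prdm10 at 1.46 and 1.96 CPM per kilobase. In WT, Prdm9 (1.25) overlapped Prdm10, Prdm16 (0.408) came next, and Prdm11 (0.143), Mecom (0.0815) and Prdm1 (0.0522) closed the order, each overlapping its neighbour in the range of the libraries. In NHD13, Prdm16 at 1.33 CPM per kilobase lay above Prdm9 (0.908), and Mecom at 0.544 lay above Prdm11 (0.123), with no overlap between neighbours. Exon lengths are the union over all annotated transcripts, so that genes with long or rarely used exons are placed too low.

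The genes whose levels over the 6 libraries were most like those of Mecom, by the root mean square difference of log2 CPM taken from each gene's WT mean, were Eya1 (0.216), 6030468B19Rik (0.312), Hif3a (0.323), Susd2 (0.337) and Hoxa7 (0.354), where the median over 10148 genes was 1.83. Eya1 encodes a transcriptional coactivator and phosphatase, and was at 2.13 to 2.61 CPM in WT and 11.3 to 14.7 CPM in NHD13. Those most like Prdm16 were Dsp (0.134), Nefh (0.265), Xlr4a (0.31), Agrn (0.324) and Traf4 (0.342), where the median was 1.2. Dsp encodes the junction protein desmoplakin and, like Prdm16, had its highest value in NHD13 replicate 3 (23.4 CPM) and in WT its highest in replicate 1 (6.56 CPM). Prdm16 was in place 34 among the genes most like Mecom, at 0.75, and Mecom in place 294 among those most like Prdm16. These distances mostly follow the size of the change between groups and are given with no test.

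Changes near the loci were looked at within 500 kb on either side. For Mecom, 7 neighbours have a row in the table and 5 were tested, and none passed by edgeR, DESeq2 or limma-voom or at an unadjusted p under 0.05. The nearest, Mynn, 54.1 kb away, was at 31 to 38.1 CPM in WT and 32.4 to 34.8 CPM in NHD13 (log2 -0.07, edgeR adjusted p = 0.617), and Phc3, which encodes a Polycomb protein, had a log2 change of -0.01. For Prdm16, 12 of 19 neighbours looked at were tested, of which 3 rose and 1 fell, about the 30.3% called over all genes. The 2 nearest genes were untested: Arhgef16 had 0 counts in every library, and Megf6 was at most 0.237 CPM. Those that rose were Smim1 (log2 1.37), which encodes the Vel blood group protein of red cells, Tnfrsf14 (0.56) and Pank4 (0.34), the nearest of them 285.1 kb away, and Fam213b fell (log2 -1.1). The calls of all 4 were lost with the Y-linked covariate, and those of Tnfrsf14 and Pank4 also without single libraries.

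Proteins described as partners of MECOM, PRDM16 or BLIMP1 were measured as a group of 20 corepressor and chromatin genes, all tested. Of these, 3 rose and 1 fell, a smaller share than the 30.3% called over all genes, with a median log2 change of 0.06 against 0.0. Prmt5, the arginine methyltransferase that BLIMP1 and PRDM4 bind, rose from 103, 96.7 and 97.6 CPM to 120, 132 and 128 CPM (1.28-fold, edgeR adjusted p = 0.00663). Smarca4, the remodeller BRG1, rose 1.2-fold (adjusted p = 0.0105) and the histone H3 lysine 9 methyltransferase gene Suv39h1 rose 1.16-fold (adjusted p = 0.0482), while the corepressor gene Tle1 fell (log2 -0.48, adjusted p = 0.0262). Ctbp1 and Ctbp2, the corepressors that MECOM and PRDM16 bind, had log2 changes of 0.25 and -0.36 that did not pass (adjusted p = 0.0544 and 0.0606), and both passed without NHD13 replicate 1. The number that rose fell to 1 when WT replicate 3 or either of NHD13 replicates 2 and 3 was left out. It was 0 with the Y-linked covariate. Leaving out NHD13 replicate 1 gave 6 higher and 2 lower, where 3012 rose and 2966 fell of all 12269 genes tested in that fit. The calls of Tle1 and Suv39h1 held in no fit that left out 1 library other than NHD13 replicate 1. Suv39h1 passed in 5 of the 16 alternatives.

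Of 8 tested genes described as bound or regulated by EVI1 in blood cells, 2 fell and none rose (by edgeR, DESeq2 or limma-voom, and none at an unadjusted p under 0.05), with a median log2 change of -0.4. This is near the share over all genes, of which 15.3% passed as lower. Gata2, the stem cell factor that EVI1 has been described as activating, was at 41.3, 60.8 and 45.2 CPM in WT and 36.9, 30.9 and 34.9 CPM in NHD13. The groups did not overlap, and it fell (log2 -0.52, SE 0.14, edgeR adjusted p = 0.0266). Fos, a component of the AP-1 factor, was at 7.35, 9.68 and 9.27 CPM in WT and 5.1, 3.62 and 3.39 CPM in NHD13, again without overlap, and it fell too (log2 -1.12, SE 0.2, adjusted p = 0.00541). Zbtb16 and Cebpa had log2 changes of -0.8 and -0.59 that did not pass (adjusted p = 0.0632 and 0.0937), and for both NHD13 replicate 1 lay within the WT range. The count that fell was 1 when replicate 2 or 3 of either group was left out, as Gata2 lost its call there, 4 by DESeq2 and 0 with the Y-linked covariate. Without NHD13 replicate 1, 6 fell and 1 rose, where 2966 fell and 3012 rose of all 12269 genes tested in that fit.

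Genes described as regulated by PRDM16 were mostly too low to test, with 3 of 7 tested. Hgf, the growth factor gene that PRDM16 has been described as activating in stem cells, was at 13.4, 13.4 and 13.5 CPM in WT and 7.43, 6.82 and 7.81 CPM in NHD13. It fell (log2 -0.87, SE 0.12, edgeR adjusted p = 0.0017), and the call was lost with the Y-linked covariate (adjusted p = 0.0826). Without NHD13 replicate 1, 2 of the 3 genes fell, where 2966 of all 12269 genes tested in that fit did. Mfn2, the mitofusin gene described as a PRDM16 target in HSCs, was at 101 to 113 CPM in WT and 111 to 115 CPM in NHD13 (log2 0.11, adjusted p = 0.268). The brown fat genes Ppargc1a and Cidea had at most 3 counts in any library, and in NHD13 both had 0.

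Of 6 tested genes described as repressed by BLIMP1 in lymphocytes, 4 fell and none rose (by edgeR, DESeq2 or limma-voom, and none at an unadjusted p under 0.05). Over all genes tested, 15.3% passed as lower and 15.0% as higher. Bcl6, the germinal centre repressor, fell from 19.1, 25 and 19.3 CPM to 14.7, 12.4 and 13.6 CPM (log2 -0.64, adjusted p = 0.01). The class II transactivator gene Ciita (log2 -2.05), Spib (-2.11) and Cd22 (-1.91) were lower from WT levels of at most 5.51 CPM. Ciita reached the low-count limit in 1 and Cd22 in 0 of 3 NHD13 libraries, against 3 of 3 in WT, so that both were tested because of their WT level and the count of 4 is no support for a direction. Spib overlapped between the groups through WT replicate 1, at 0.711 CPM, and lost its call in limma-voom and when any library except WT replicate 1 was left out. No call of the 4 held with the Y-linked covariate, and 2 genes fell where the count minimum was 30. Myc, the best known BLIMP1 target, had a log2 change of -0.09 (adjusted p = 0.636).

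**Figure D4:**
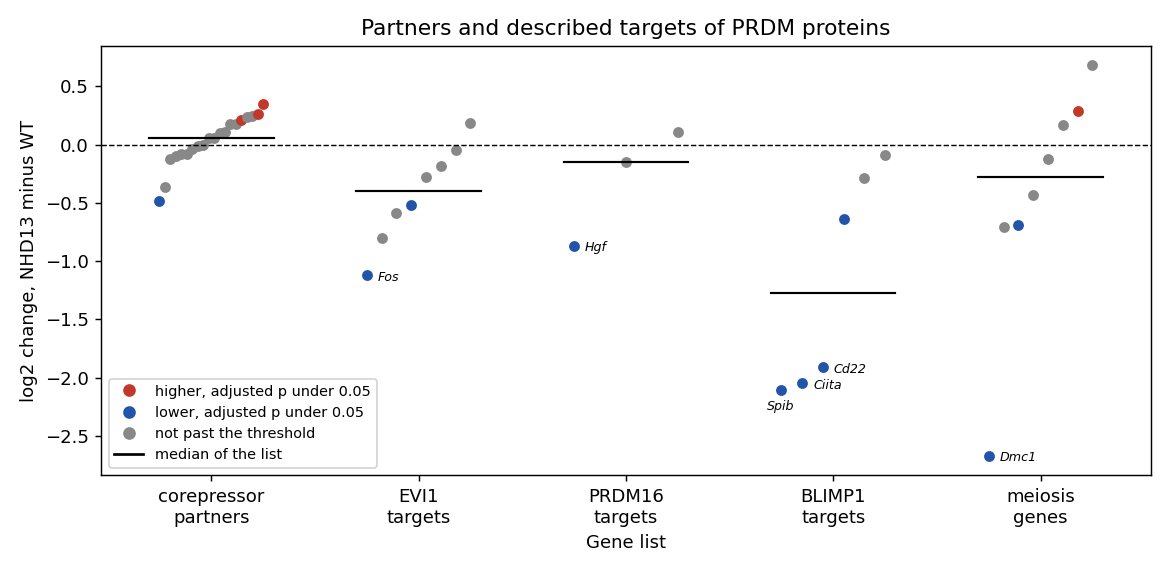
Log2 change (NHD13 minus WT) of each tested gene in 5 lists of partners and described targets of PRDM proteins, red where higher and blue where lower at an adjusted p under 0.05, with a line at each list's median. Dmc1 at -2.67 and Spib at -2.11 lie lowest, and the medians of the lists run from -1.27 to 0.06.

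Beside Prdm9, meiosis genes were measured, of which 8 of 10 were tested, and 2 fell and 1 rose, near the 30.3% called over all genes. Without NHD13 replicate 1, 3 rose, where 3012 of all 12269 genes tested in that fit did. Leaving out replicate 1 of both groups also gave 3 that rose, where 3244 of all 12176 genes did. With the Y-linked covariate none rose and 1 fell, where 111 rose and 175 fell of all 12013 genes. Dmc1, the recombinase of meiosis, was at 6.24, 6.4 and 6.97 CPM in WT and 1.05, 1.18 and 0.829 CPM in NHD13, groups that do not overlap. It fell 6.37-fold (log2 -2.67, SE 0.21, edgeR adjusted p = 0.000141) and held in all alternatives. Zcwpw1, which reads the histone marks that PRDM9 writes, fell (log2 -0.69, adjusted p = 0.0291) and its call was lost without any 1 of 5 libraries. Cxxc1, which binds PRDM9 in mice and belongs to a general histone methyltransferase complex, rose (log2 0.29, adjusted p = 0.0144), and its call was lost when replicate 3 of WT or replicate 2 or 3 of NHD13 was left out. Sycp1, of the synaptonemal complex, had 0 counts in every library, and Spo11, which cuts DNA in meiosis, was at most 0.372 CPM.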

How the data were processed

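RNA-seq of 3 WT and 3 NHD13 libraries was used. The authors deposited raw counts per gene, made with HTSeq 0.5.4p3, Bowtie2 2.2.1 and build mm10 according to what is named per the submitters' processing notes. The labels and notes state no annotation, strand setting or read filter. Columns were matched to samples by group letters and replicate number, and 0 value columns were left unused. No row of the table is nameless.

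Genes were kept by filterByExpr (minimum count 10), scaled by TMM and tested with edgeR 4.0.16 in R 4.3.3 (robust glmQLFit, glmQLFTest, group as the term), with Benjamini-Hochberg adjustment over 12013 genes and a threshold of 0.05, two-sided. The SE is the log2 change over the square root of F, and intervals are 95%. Among the 16 alternatives, those for scaling used DESeq2 size factors, upper-quartile factors or library totals alone. Those for the filter used no low-count filter or a minimum count of 30. Those for the test used DESeq2 1.42.0 (Wald test) or limma-voom (limma 3.58.1). Others left out each library in turn, or replicate 1 of both groups. The last added the replicate number as a block or the Y-linked share as a covariate. The fit was checked on simulated data for this comparison over 12013 genes: of 50 genes each simulated at log2 changes of -2, -1, 1 and 2, it called 49, 41, 43 and 48 with the right sign, with 15 false calls. The simulation drew libraries independently and changed far fewer genes than the 3638 called here. It held no library set apart like NHD13 replicate 1, so it cannot show how the fit handles one. Log2 CPM for likeness used a prior count of 2. Floors (3 counts) and counting intervals cover counting error only. Gene positions are those of GENCODE vM21 (mm10, also called GRCm38) and promoters from RefSeq (GRCm38.p6).

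The members, gene lists, patterns and alternatives were chosen with earlier results of these data known. Genes named are the members and other PRDM genes, up to 4 of each list with the lowest p among those past the threshold (otherwise the 2 most abundant), and the 5 most like Mecom and Prdm16 whose average log2 CPM reached 2. Cell marker lists are given as sums, with some of their genes named. Some genes of these lists and regions are not reported here. Other names (neighbours, untested genes, genes of the cell marker lists, Ctbp1, Ctbp2 and further list members not past the threshold) were chosen after their values were seen.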

Additional observations from a re-analysis of the deposited data

How the results depend on the processing

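The rises of Mecom and Prdm16 kept their direction and their call in all 16 alternatives, and 3 members rose in 11 of them and 2 in the others, where Prdm10 was lost. No member fell except Prdm2, which alone made 1 lower member without NHD13 replicate 1 and without replicate 1 of both groups (range 0 to 1 when single libraries were left out). The log2 change of Prdm11 ran from -0.44 to 0.17 when single libraries were left out, with its sign turned by leaving out replicate 1 of WT (0.17) or replicate 3 of NHD13 (0.06), and the sign of Prdm15 turned with the Y-linked covariate (-0.08), under which Prdm11 was at -1.23, none past the threshold. Over all genes, leaving out single libraries gave 760 to 3012 higher and 957 to 2966 lower genes, against 1799 and 1839. Without replicate 1 of both groups these were 3244 and 3245, and with the Y-linked covariate 111 and 175; the cause was not tested. With the replicate number as a block, 2007 genes were higher and 2233 lower, 3 members rose and 0 fell, and 5 EVI1 targets fell. The numbers share no stated source, and deviations of same-numbered libraries correlated across genes at 0.249, 0.0632 and 0.175, so they were not taken as pairs, and NHD13 replicate 2 correlated best with WT replicate 3 (0.149). Depth limits Prdm1, Prdm8, Prdm12 and Prdm14, which had too few counts to test.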

Other observations

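The FOG genes Zfpm1 and Zfpm2 encode GATA cofactors with a domain related to the PR domain, and were looked at after their values were seen. Zfpm1, which works with GATA1 in red cell and platelet precursors, was at 59.8, 69.7 and 56.9 CPM in WT and 124, 188 and 179 CPM in NHD13 (log2 1.4, SE 0.15, edgeR adjusted p = 0.000794). Zfpm2, better known from heart and gonad, was not counted in WT, and its counts in NHD13 replicates 1 to 3 were 110, 62 and 46, or 8.25, 4.31 and 3.18 CPM. Unlike Mecom, Zfpm2 was highest in NHD13 replicate 1. With WT at 0 counts, Zfpm2 could pass the low-count limit only through NHD13.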
